A study of Homo sapiens with 16 samples.

Results

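The downstream-of-gene transcripts (DoGs) of the long noncoding RNA genes KCNQ1OT1 and FTX were followed through 16 RNA-seq libraries of HEK293 cells, an established line derived from human embryonic kidney. Both genes were taken by identity, by matching Ensembl gene identifiers without their version to GENCODE symbols. They were 2 of the 3139 DoGs with an FPKM value (fragments scaled to the length of the DoG region and to the library) and 2 of the 3505 genes with a listed DoG region, and 258 of the DoGs with a value belonged to lncRNA genes. Control cells were untreated, and cells under the DoG-inducing condition were kept for 9 h in sorbitol at 200 mM and cycloheximide at 100 μg/mL, which together are called stress below. The RNA of each condition was prepared by conventional AGPC (acid guanidinium-phenol-chloroform) extraction, by hiAGPC, in which the lysate was heated, and by SERIPH. The latter yields an aqueous 1st-step fraction and a 2nd-step fraction that comes from the interphase. Each of these 8 groups had 2 biological replicates of this single line. Per the paper, the same samples were extracted side by side by the different methods. Libraries of a condition are therefore not independent across preparations, and the main comparison of FPKM below used no pairing. Sorbitol and cycloheximide were given together, so their effects cannot be told apart.

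A DoG arises when RNA polymerase II passes the normal end of a gene without terminating, and osmotic stress is a well-known inducer. KCNQ1OT1 is a nuclear RNA read antisense to KCNQ1, from a promoter inside an intron of that potassium channel gene, on the paternal allele, and it silences neighbouring imprinted genes in cis. FTX lies in the X inactivation centre, is a positive regulator of XIST and hosts a cluster of microRNAs.

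KCNQ1OT1 (ENSG00000269821.2) lies on the minus strand of chromosome 11, from 2597308 to 2700003 of GRCh38. Of its 102.7 kb, 90.2% are exonic in at least 1 of 14 annotated transcripts. Of these transcripts, 2 end within 1 kb of the annotated gene end and 11 end more than 10 kb before it. FTX (ENSG00000230590.13) lies on the minus strand of chromosome X, from 73940435 to 74293574. Its 353 kb are 12% exonic over 79 transcripts, of which 1 ends within 1 kb of the gene end and 77 end more than 10 kb before it. Thus the DoG region of each gene was counted from an end that few of its annotated transcripts reach. The bases around the end of KCNQ1OT1 are shown because every one of its listed regions starts there, 60 bases before and 40 bases after the end, from GRCh38, on the minus strand, at chr11:2597268-2597367. Capitals mark AATAAA, the canonical polyadenylation signal, where it lies in the last 50 bases of the gene on the sense strand.
KCNQ1OT1: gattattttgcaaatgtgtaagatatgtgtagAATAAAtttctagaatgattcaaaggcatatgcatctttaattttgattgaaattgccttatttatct

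In KCNQ1OT1, 22 bases separated the AATAAA from the gene end. AATAAA was present in the same window of 48.2% of 38912 protein-coding and lncRNA genes, of 36.9% of lncRNA genes and of 54.2% of genes with a DoG value. Each consecutive 25-base piece of the sequence shown had 1 exact match in the genome, its own position, and the authors kept uniquely mapped reads only.

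The conditions in which the DoGs were listed were opposite. A region of KCNQ1OT1 was listed in 8 of 8 stress libraries and in 0 of 8 control libraries, a pattern shared by 3.59% of the 3505 genes. A region of FTX was listed in 4 libraries, both hiAGPC and both SERIPH 2nd-step libraries of control cells, and in 0 of 8 stress libraries. Exactly that pattern was found for 1.03% of the genes, and 11% were listed in at least 1 control library but in no stress library. Hence the FTX region was never listed in a conventional or 1st-step library, while that of KCNQ1OT1 was listed in every preparation of stressed cells.

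Under stress, the listed KCNQ1OT1 region was longer in the preparations that recover RNA from the interphase. Both conventional libraries listed 15 kb, from 2582308 to 2597307 of chromosome 11. In the 1st-step fraction, replicate 1 listed the same 15 kb and replicate 2 listed 50 kb, back to 2547308. Both hiAGPC libraries listed 75 kb, back to 2522308, as did 2nd-step replicate 1, and 2nd-step replicate 2 listed 80 kb, back to 2517308. The means were 15.0 kb, 32.5 kb ± 24.7, 75.0 kb and 77.5 kb ± 3.54 (SD, n = 2). Lengths in hiAGPC and in the 2nd step did not overlap those in the conventional and 1st-step libraries, but 2 against 2 libraries allow no exact permutation p below 0.33 (two-sided), which is the value each of these comparisons gave. The 2nd step and hiAGPC overlapped (exact permutation p = 1), as did the 1st step and the conventional preparation (exact permutation p = 1). The median length over all regions listed in these groups was 15 kb, 15 kb, 25 kb and 35 kb. The shortest KCNQ1OT1 region exceeded 77.0% of the regions in hiAGPC and 71.9% of those in the 2nd step, but 47.0% of those in the conventional preparation.

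FTX regions in control cells were shorter. Both hiAGPC libraries listed 10 kb, the shortest length that the caller accepts, from 73930435 to 73940434 of chromosome X. The 2nd-step libraries listed 25 kb, back to 73915435, and 30 kb, back to 73910435, with a mean of 27.5 kb ± 3.54 (SD, n = 2). These lengths did not overlap those in hiAGPC (exact permutation p = 0.33, the smallest possible). The median over all regions was 10 kb in both groups, and 77.8% of the 2nd-step regions were shorter than 25 kb. Lengths grow in windows of 5 kb, so smaller differences could not be seen.

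**Figure D1:**
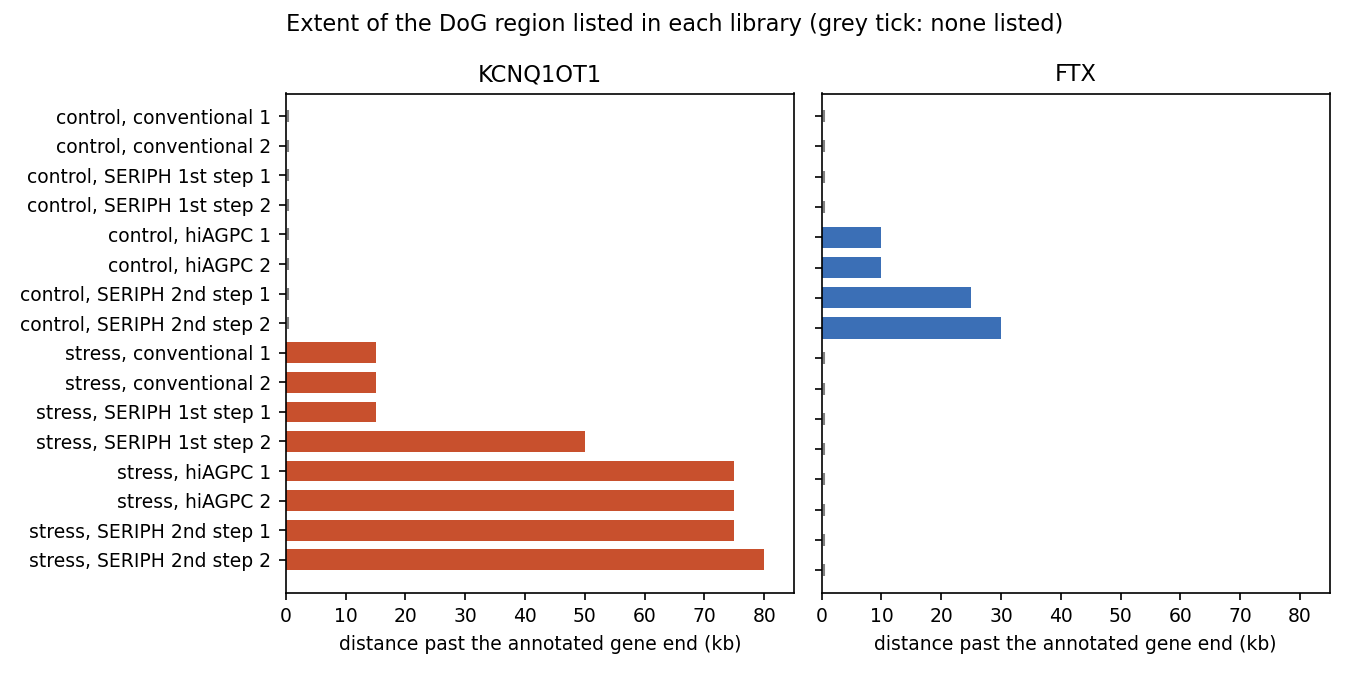
Each bar runs from the annotated gene end (0) to the far end of the DoG region listed in 1 library, in kb downstream, and a grey tick marks a library that listed none. KCNQ1OT1 has 8 bars, all under stress, from 15 to 80 kb, and FTX has 4 bars, all in control cells, from 10 to 30 kb.

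The regions also differed in what surrounds them. All KCNQ1OT1 regions lay within KCNQ1 on the opposite strand and reached no gene on their own strand, and the next such gene, TRPM5, which encodes a cation channel, began 72.8 kb past the far end of the longest region. The nearest upstream DoG on the same strand was that of KCNQ1-AS1, which stopped 85.1 kb before the start of KCNQ1OT1. On the plus strand, the DoG of TSSC4 ran into the KCNQ1OT1 region in the 2nd-step libraries under stress, over 21.6 kb (28.8% of the region) in replicate 1 and 41.6 kb (52.0%) in replicate 2. The libraries were stranded, but the strand setting used for counting DoGs is not given in the sources used here, so the share of KCNQ1OT1 FPKM that came from the opposite strand was not tested. FTX regions overlapped no gene on either strand, and the next gene on their strand, XIST, began 57.7 kb past the longest. The longest KCNQ1OT1 region had a GC content of 55.8%, above that of 93.5% of the 3505 longest regions, and the longest FTX region 41.7%, above 25.5% of them. The median was 45.7%.

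The FPKM of the KCNQ1OT1 DoG, given by the authors over a single region of 80 kb, was at or near 0 in control cells and rose under stress. In control cells it was listed at 0 in both conventional and both 1st-step libraries, at 0.01 and 0 in hiAGPC and at 0.01 in both 2nd-step libraries. Under stress it was 0.56 and 0.57 in the conventional preparation, 0.77 and 0.68 in the 1st-step fraction, 1.16 and 1.05 in hiAGPC and 1.96 in both 2nd-step libraries. Every stress library was above every control library. The stress means were 0.565 ± 0.00707, 0.725 ± 0.0636, 1.105 ± 0.0778 and 1.96 (SD, n = 2). Values are rounded to 0.01, a step that stands for 16 to 48 read pairs in this region at the nominal depth of 20 to 60 M read pairs, so a value of 0 does not mean that no read was present.

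The difference from control cells passed the test in all 4 preparations, although with a pseudocount of 1 it fell under the required size in the conventional preparation (0.65) and the 1st step (0.79). DoGs were compared on the scale log2(FPKM + 0.1) with limma over all 16 libraries, and a change was called where the p adjusted by the Benjamini-Hochberg method was under 0.05 and the absolute difference at least 1. For KCNQ1OT1, stress minus control was 2.73 ± 0.08 (SE, adjusted p = 1.17e-10) in the conventional preparation, where 22.2% of DoGs were called higher and the median difference of all DoGs was 0.44. It was 3.04 ± 0.08 (adjusted p = 5.44e-11) in the 1st-step fraction, where 21.8% were called higher and the median was 0.43. In hiAGPC it was 3.52 ± 0.08 (adjusted p = 9.26e-13), against 70.2% called higher and a median of 1.86, and in the 2nd-step fraction 4.23 ± 0.08 (adjusted p = 1.32e-13), against 74.6% and a median of 2.38. Between 95.5% and 99.1% of DoGs had a lower difference in the same preparation. The KCNQ1OT1 region was listed only under stress, so these tests use the groups through which it was listed. With each library centred on its median DoG, the differences were 2.18, 2.54, 1.60 and 1.98 in the same order, all still called. With control cells at 0 or 1 rounding step, the size of these differences depends on the added 0.1, and no fold is given. The libraries are of bulk RNA, so a change in the number of cells with this RNA and a change in its amount per cell cannot be told apart.

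The FTX DoG, measured over 30 kb, had the opposite pattern and was lower under stress. In control cells its FPKM was 0.14 and 0.11 in the conventional preparation, 0.1 and 0.11 in the 1st-step fraction, 0.47 and 0.53 in hiAGPC and 0.98 and 1.28 in the 2nd-step fraction. Under stress the values were 0.04 and 0.01, 0.03 and 0.02, 0.32 and 0.31, and 0.47 and 0.37 in the same order. Within each preparation, both stress libraries were below both control libraries. The control means were 0.125 ± 0.0212, 0.105 ± 0.00707, 0.5 ± 0.0424 and 1.13 ± 0.212, and the stress means 0.025 ± 0.0212, 0.025 ± 0.00707, 0.315 ± 0.00707 and 0.42 ± 0.0707 (SD, n = 2). A step of 0.01 stands for 6 to 18 read pairs here, so the aqueous values under stress rest on 1 to 4 such steps.

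The fall of FTX was called in the 2nd-step fraction, where stress minus control was -1.24 ± 0.14 (SE, limma, adjusted p = 3.32e-06), a mean 2.69-fold lower. The value became -3.49 with median centring, and with a pseudocount of 1 it was -0.58 and no longer called. In that comparison 11.7% of DoGs were called lower, and the median of all DoGs was 2.38. The difference was -0.86 ± 0.14 in the conventional preparation (adjusted p = 1.76e-04, 5-fold lower mean FPKM, from 3.12 to 12.5 against the single stress libraries) and -0.71 ± 0.14 in the 1st-step fraction (adjusted p = 7.07e-04, 4.2-fold). In hiAGPC it was -0.53 ± 0.14 (adjusted p = 0.00394, 1.59-fold). These 3 passed the adjusted p but not the required difference of 1. On the adjusted p alone, 21.8%, 22% and 15.4% of DoGs were lower in the same preparations. Centring every library on its own median DoG could only make these FTX differences more negative, since the median difference was positive in each preparation. It is therefore no check of their direction. The FTX region was listed only in control libraries, so these tests use groups through which it was listed. Transcription of the FTX and KCNQ1OT1 genes themselves was not analysed here, so a change in readthrough and a change in the whole gene cannot be told apart.

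**Figure D2:**
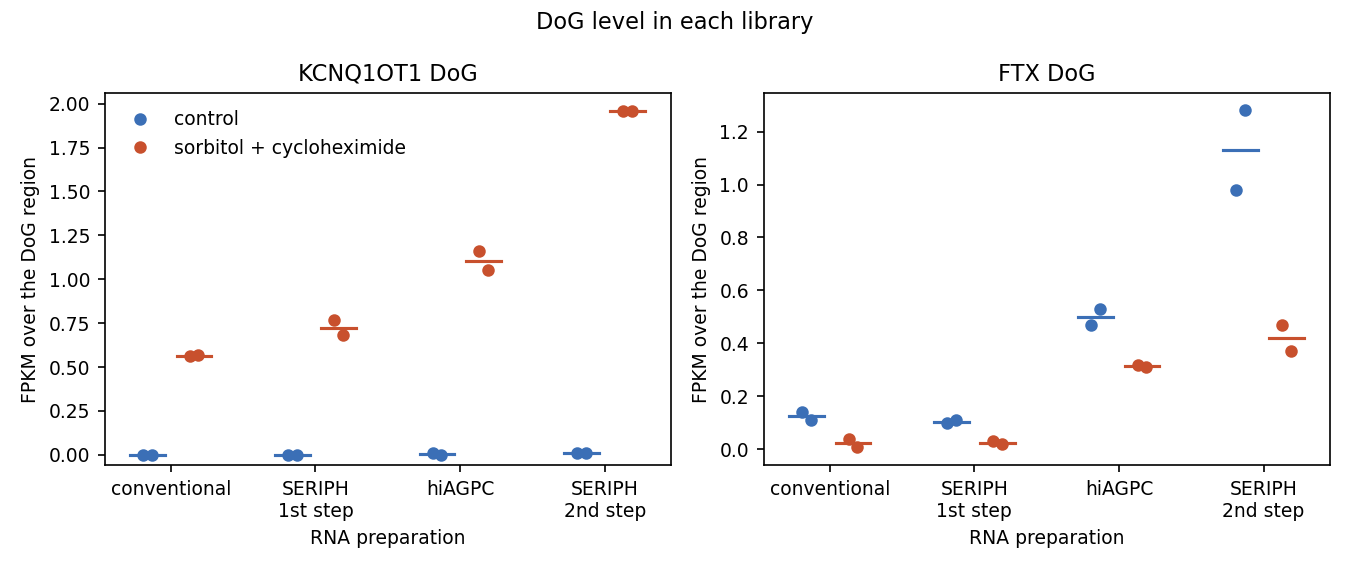
FPKM over the DoG region (vertical axis) of KCNQ1OT1 and FTX in each library by RNA preparation, with a point for each of 2 replicates and a line at their mean. KCNQ1OT1 lies at 0 or 0.01 in all control libraries and between 0.56 and 1.96 under stress, while FTX is lower under stress in each preparation, with its highest values, 0.98 and 1.28, in the 2nd-step fraction of control cells.

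Both DoGs had a similar order of levels under stress, except that the aqueous values of FTX overlapped (means 0.025 and 0.025). Under stress, KCNQ1OT1 rose from the conventional preparation through the 1st-step fraction and hiAGPC to the 2nd-step fraction, and no neighbouring groups overlapped. Over all 8 groups, FTX was highest in the 2nd step of control cells, followed by control hiAGPC. The 2nd step under stress came next and met control hiAGPC at 0.47, and hiAGPC under stress followed at 0.32 and 0.31. Control conventional and 1st-step values overlapped, as did the corresponding values under stress, which were the lowest. Against other DoGs of the same library, KCNQ1OT1 exceeded between 83.2% and 92.6% of them in stress libraries. FTX exceeded 92.4% to 96.3% of DoGs in the 2nd step of control cells, 80.2% to 83.0% in control hiAGPC and 0.287% to 15.8% in the stress libraries.

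In control cells, FTX gained more from interphase recovery than most DoGs, but the comparisons use the groups through which it was listed. Its region was listed only in control hiAGPC and 2nd-step libraries, and its FPKM was taken over 30 kb, the longest length listed. The median FPKM over all DoGs was 0.07 to 0.1 in control libraries, near the added 0.1. The hiAGPC level of FTX was 4 times the conventional one. This was a difference of 1.42 ± 0.14 (SE, limma, adjusted p = 5.66e-05), in a comparison where 1.08% of DoGs were called higher and the median was 0.06. The 2nd step exceeded the 1st step 10.8-fold, by 2.57 ± 0.14 (adjusted p = 6.07e-08), where 11% were called higher and the median was 0.17. The 2nd step exceeded hiAGPC 2.26-fold, by 1.03 ± 0.14 (adjusted p = 3.29e-04), where 0.86% were called higher and the median was 0.11. Of all DoGs, 99.6%, 99.7% and 99.2% had a lower difference in these comparisons. The last call was the least secure, since it lost the required difference of 1 without hiAGPC replicate 1 (0.95), without 2nd-step replicate 2 (0.85) and with median centring (0.87). With a pseudocount of 1 all 3 differences fell below 1 (0.41, 0.94 and 0.50). The 1st step and the conventional preparation, both aqueous, differed by -0.13 for FTX (95% interval -0.45 to 0.19, adjusted p = 0.862), and limma called 0% of DoGs there, with 355 at an unadjusted p under 0.05. KCNQ1OT1, at 0 or 0.01 in control cells, could not be compared between preparations.

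Under stress, where most DoGs were higher in hiAGPC and in the 2nd step, FTX lay near the median DoG or somewhat above it in both, and KCNQ1OT1 below it. FTX gained 1.74 in hiAGPC over the conventional preparation (SE 0.14, limma, adjusted p = 1.74e-07), where 68.8% of DoGs were called higher and the median was 1.40. It was higher in the 2nd than in the 1st step by 2.05 ± 0.14 (adjusted p = 2.40e-08), where 79.3% were called higher and the median was 1.99. Both calls were lost once libraries were centred on their medians, at 0.30 (adjusted p = 0.0669) and 0.066 (adjusted p = 0.663), and with a pseudocount of 1 (0.36 and 0.47). Its mean FPKM was 12.6-fold and 16.8-fold higher, but against the single aqueous libraries, at 0.01 to 0.04, these folds ranged from 7.88 to 31.5 and from 14 to 21. Between the 2nd step and hiAGPC, FTX differed by 0.32 (95% interval 0.00 to 0.64, adjusted p = 0.0653), which did not pass the test and became -0.16 when each library was centred on its median.

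For KCNQ1OT1 under stress, hiAGPC exceeded the conventional preparation by 0.86 ± 0.08 (SE, limma, adjusted p = 4.42e-07), a 1.96-fold mean that missed the required difference and that turned to -0.59 once libraries were centred on their medians. The 2nd step exceeded the 1st step 2.7-fold, by 1.32 ± 0.08 (adjusted p = 4.36e-09), which was called and which turned to -0.66 with the same centring. So KCNQ1OT1 was higher in these preparations in FPKM but lower relative to the median DoG, and 26.3% and 27.3% of DoGs had a smaller difference. The 2nd step exceeded hiAGPC 1.77-fold, by 0.78 ± 0.08 (adjusted p = 6.65e-06), against a median of 0.52 and 6.91% of DoGs called higher. The 1st step exceeded the conventional preparation by 0.31 ± 0.08 (adjusted p = 0.0462), and this adjusted p was not held in limma fits with a replicate block within condition (0.0642), with the 4 libraries alone (0.318), with a pseudocount of 0.01 (0.418), or without conventional replicate 1 (0.187), conventional replicate 2 (0.0832) or 1st-step replicate 1 (0.208). In that comparison 3.09% of DoGs were higher on the adjusted p alone and 0% passed both criteria, with 933 at an unadjusted p under 0.05. In mean FPKM, the conventional level of KCNQ1OT1 was 51.1% of that in hiAGPC, and its 1st-step level 37.0% of that in the 2nd step. The values for FTX were 7.94% (3.17% and 12.7% with a single conventional library) and 5.95%. The medians over 3003 DoGs with a stress mean of at least 0.1 in both hiAGPC and the 2nd step were 24.8% and 15.8%. That filter acts on the denominators. More regions were also listed under stress in hiAGPC (3537) and the 2nd step (4838) than in the conventional preparation (798) and the 1st step (743). Both points favour low medians, while KCNQ1OT1 was listed in every stress library.

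**Figure D3:**
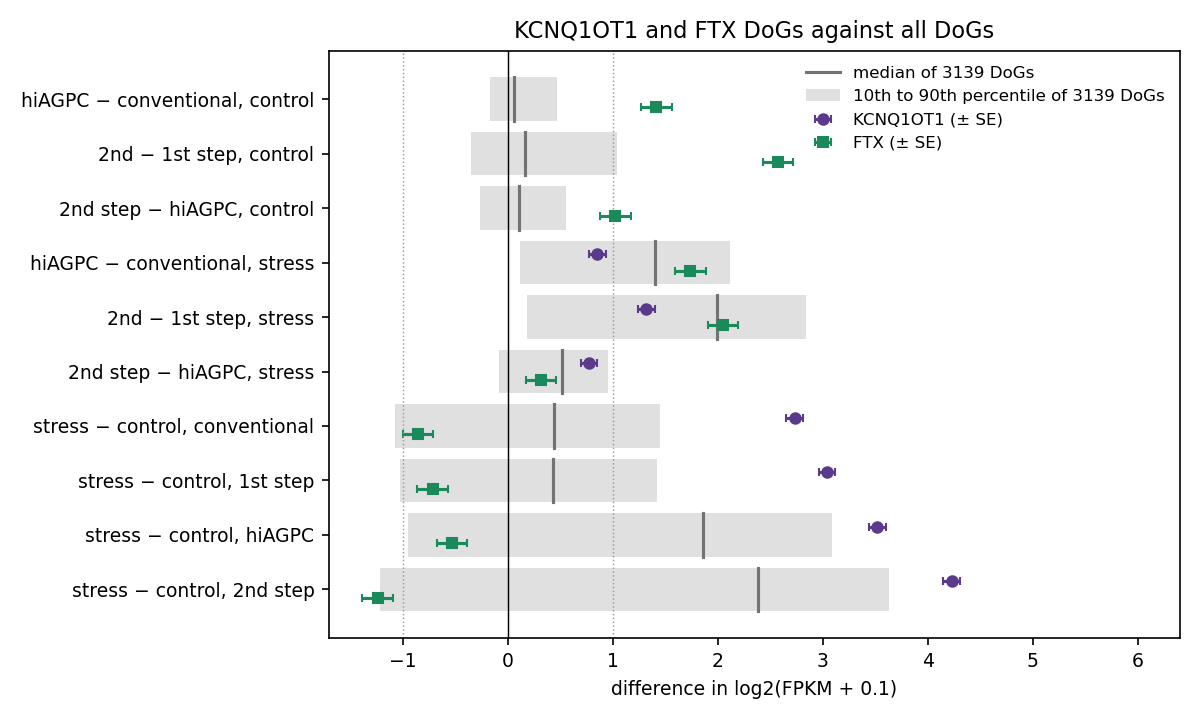
Differences in log2(FPKM + 0.1), horizontal axis, for KCNQ1OT1 (circles) and FTX (squares), with limma SE as error bars, over the 10th to 90th percentile (grey) and the median (line) of 3139 DoGs. Dotted lines mark differences of -1 and 1, and KCNQ1OT1 is left out among control preparations because it was listed at 0 or 0.01. FTX stands above the grey range in the 3 comparisons of control preparations drawn and KCNQ1OT1 above it in the 4 stress comparisons, but the 2 upper KCNQ1OT1 points among stress preparations, 0.86 and 1.32, turn negative when each library is centred on its median.

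Whether the stress effect differed between preparations was tested with interaction terms. For KCNQ1OT1, listed at 0 or 0.01 in control cells, these terms mostly restate the differences between preparations under stress. For KCNQ1OT1 the effect was larger in the 2nd than in the 1st step by 1.18 ± 0.11 (SE, limma, adjusted p = 5.94e-07), where 72.9% of DoGs were called higher and the median was 1.76, and it became -0.57 once libraries were centred on their medians. It was larger in hiAGPC than in the conventional preparation by 0.79 (adjusted p = 3.27e-05), which became -0.57 with that centring, and larger in the 2nd step than in hiAGPC by 0.71 (adjusted p = 4.31e-04). Neither reached the required difference, which 64% and 5.58% of DoGs did. For FTX the corresponding terms were -0.52 (adjusted p = 0.0298), which became 0.33 with a pseudocount of 0.01, then 0.33 (adjusted p = 0.158), which turned negative with a pseudocount of 1 or with centring, and -0.71 (adjusted p = 0.0139). None was called. With libraries centred on their medians, all 3 FTX terms were called, at -2.27 (adjusted p = 9.55e-07), -1.04 (adjusted p = 6.56e-04) and -1.04 (adjusted p = 0.00265). The median terms of all DoGs were positive (1.76, 1.29 and 0.39 in the same order), so centring lowered the FTX terms by design. These calls place FTX below the median DoG and are no separate evidence of its own stress effect. With a pseudocount of 0.01 the term for hiAGPC and the conventional preparation was called at 1.44. Whether stress acted differently on FTX between preparations therefore depended on the scale.

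The rise of KCNQ1OT1 and the fall of FTX were set beside other lncRNAs. Of 45 others in a list of regulatory lncRNAs, 10 had a DoG value, and where these RNAs lie in the cell was not analysed. In the 2nd-step fraction, stress minus control was called higher for 9 of these and lower for 1 (background 74.6% and 11.7%), with a median of 3.35 against 2.38 over all DoGs, so the count of 9 was near the background. NORAD, which binds Pumilio proteins, rose by 4.6 on the log2 scale, from 0.01 and 0.01 to 2.63 and 2.5 FPKM. The exception was CYTOR, which fell by 1.94, from 0.68 and 0.65 to 0.09 and 0.11. In the conventional preparation 5 were higher and 1 lower, with a median of 0.87 against 0.44 (background 22.2% and 11%). Over all 256 other lncRNA DoGs, 219 rose and 23 fell in the 2nd step, with a median of 2.73, so FTX was among the smaller number of lncRNA DoGs that fell.

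**Figure D4:**
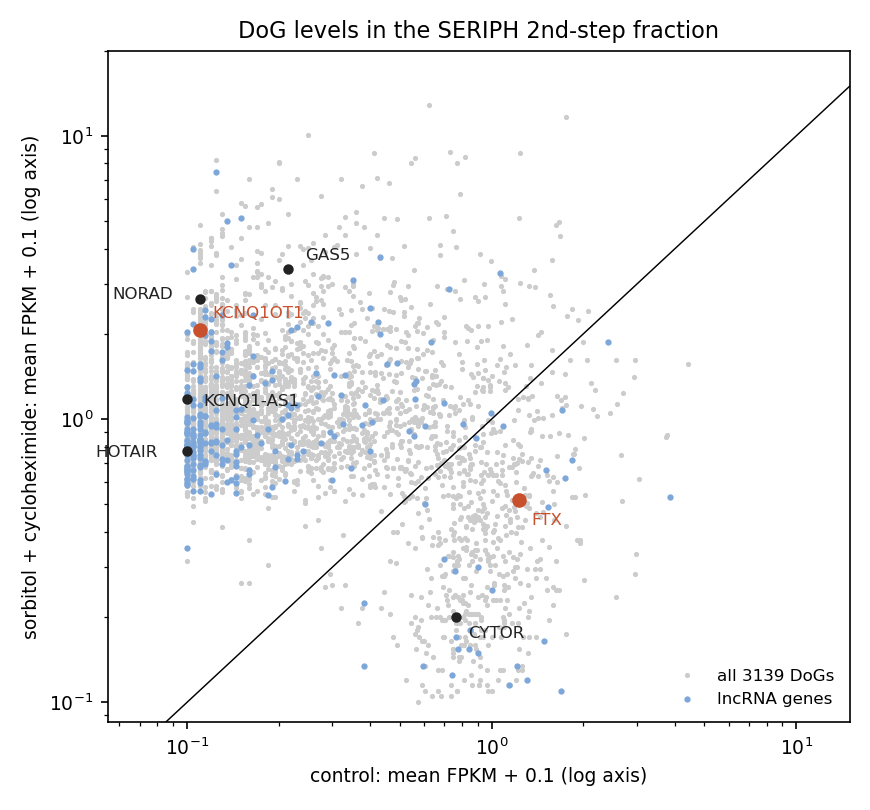
Mean FPKM + 0.1 in the 2nd-step fraction of control cells (horizontal) and stressed cells (vertical), both on log axes, with a point for each of 3139 DoGs, lncRNA genes in blue and the diagonal marking equal levels. KCNQ1OT1 lies far above the diagonal, with NORAD, GAS5, KCNQ1-AS1 and HOTAIR, while FTX and CYTOR lie below it.

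Of 28 other genes of the imprinted 11p15 cluster and its surroundings, 4 had a DoG value: KCNQ1-AS1, an lncRNA of the locus, CDKN1C, a cyclin-dependent kinase inhibitor, NAP1L4, a histone chaperone, and TSSC4. All 4 were called higher under stress in the 2nd-step fraction (3.55, 3.68, 1.80 and 3.67, background 74.6%) and in hiAGPC (background 70.2%). In the aqueous preparations 3 of 4 (conventional, background 22.2%) and 2 of 4 (1st step, background 21.8%) were. KCNQ1-AS1 was at 0 in all 8 control libraries and, under stress, at 0.17 and 0.16 in the 1st step and 0.96 and 1.19 in the 2nd step. Its 1st-step mean was thus 15.3% of its 2nd-step mean, against 37.0% for KCNQ1OT1. The KCNQ1-AS1 region was listed only in 2nd-step libraries, which form the denominator, and that favours a low value. TSSC4, whose DoG runs toward KCNQ1OT1, rose from 0.03 and 0.03 to 1.52 and 1.58 in the 2nd step.

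Of 22 other genes in and around the X inactivation centre, 6 had a DoG value. In the 2nd-step fraction, stress raised 2 and lowered 3 of them by the same criteria (background 74.6% and 11.7%), with a median of -0.95 against 2.38 over all DoGs. The genes that fell with FTX were CHIC1 (-2.09), UPRT (-2.43) and PBDC1 (-1.36), and RLIM, an E3 ubiquitin ligase that promotes XIST expression, rose by 1.10. The other gene called higher was XIST. UPRT fell from 0.82 and 0.81 to 0.06 and 0.08 FPKM. CHIC1 and UPRT were each listed in 2 control libraries and in no stress library. PBDC1 differed from FTX in extraction, since it was lower in the 2nd than in the 1st step of control cells (-1.83), where FTX was higher by 2.57.

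The DoGs most like each member over the 16 libraries were found by Pearson's r of log2(FPKM + 0.1), given as a description because the libraries fall into the same 8 groups for all genes. For KCNQ1OT1 these were MAP1LC3B, an autophagy protein (r = 0.998), NDUFV1, a subunit of respiratory complex I (r = 0.998), TPPP (r = 0.997), NUTM2E (r = 0.997) and PRR20G (r = 0.997), and 849 DoGs had an r over 0.9. For FTX they were SMC3, a cohesin subunit (r = 0.981), THOC3, a subunit of the THO complex (r = 0.975), RAD54L, a recombination factor (r = 0.974), PCNT, a centrosomal protein (r = 0.973), and CCAR1 (r = 0.970), and 75 DoGs had an r over 0.9. THOC3 was close to FTX in level too, with mean FPKM of 0.095 and 1.295 in the conventional preparation and the 2nd step of control cells and 0.025 and 0.365 under stress. Between KCNQ1OT1 and FTX r was -0.21.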

How the data were processed

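RNA of HEK293 cells was sequenced in 16 stranded, rRNA-depleted libraries (paired-end, 150 bp, nominal depth 20 to 60 M read pairs). Per the labels and the study's methods, the authors used fastp 0.25.0, Bowtie2 2.5.4 against ribosomal DNA and STAR 2.7.11b on GRCh38, kept uniquely mapped reads and called DoGs with ARTDeco per library (at least 10 kb, windows of 5 kb, coverage of at least 0.5, GENCODE 49). The authors deposited region lists and FPKM over 1 region per gene, with 2 decimals, whose scaling reads are not named. Read counts could not be recovered from these rounded FPKM, and raw reads were not used here, so no count test was run and only the nominal depth is known. A higher FPKM can also reflect less of other RNA in a preparation. No column was left without a sample.

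Gene models and sequences came from GENCODE 44 and GRCh38, and 3131 of 3139 identifiers matched. FPKM was compared with limma 3.58.1 in R 4.3.3 with an intensity trend (pseudocount 0.1, 16 libraries, 15 comparisons, Benjamini-Hochberg adjustment over 3139 DoGs). Everything else was computed in Python 3.11.15. The model was tested on simulated data for 12 comparisons and recovered 199 or 200 of 200 changed DoGs with a log2 difference of 2, and called 0 of 2939 others. The members, lists and tests were chosen with earlier results of these data known. Besides both members, the genes named are those overlapped by or next to a region, the 5 most alike DoGs with a mean FPKM of at least 0.1, and list genes that were called or adjoin a member. Alternatives were pseudocounts of 0.01 and 1, a filter on low FPKM, median centring, replicate blocks, no trend, the adjusted p alone, the 4 libraries compared alone, each library left out and a minimum length of 20 kb. The replicates are biological per the labels. The line was not checked against marker genes, since the values are those of DoGs. Some sequence is not reported here.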

Additional observations from a re-analysis of the deposited data

Results flagged for a closer look

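The effect of stress on KCNQ1OT1 was compared between SERIPH fractions by an interaction term. On the log2(FPKM + 0.1) scale it was 4.23 in the 2nd step and 3.04 in the 1st step, a difference of 1.18 (limma interaction, adjusted p = 5.94e-07). The 2nd step exceeded the 1st by 1.32 under stress and by 0.14 in control cells, where values were 0 or 0.01 FPKM. The term therefore mostly restates the difference under stress. Both 2nd-step libraries exceeded both 1st-step libraries under stress. The median difference over all DoGs was 1.76, and the value for KCNQ1OT1 was 0.43 with a pseudocount of 0.01 and -0.57 after centring by library median.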

How the results depend on the processing

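Of 356 alternative values for 26 differences in FPKM, 311 kept direction and call and 10 reversed. Comparisons of KCNQ1OT1 among control preparations were left out, since it was listed at 0 or 0.01. The cause of the changes was not tested.

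With a pseudocount of 1, the required difference of 1 was lost by FTX in control cells (hiAGPC over conventional 0.41, 2nd over 1st step 0.94, 2nd step over hiAGPC 0.50), by FTX under stress (0.36 and 0.47 for the first pair of contrasts) and for its stress effect in the 2nd step (-0.58). KCNQ1OT1 lost it for the 2nd over the 1st step under stress (0.78), for the stress effect in the conventional preparation (0.65) and 1st step (0.79) and for the interaction of 2nd and 1st step (0.77). The FTX interaction of hiAGPC and conventional became -0.055. With a pseudocount of 0.01, FTX passed for stress in the conventional preparation (-2.08) and 1st step (-1.73) and for the interaction of hiAGPC and conventional (1.44), its interaction of 2nd and 1st step became 0.33, and that of KCNQ1OT1 was no longer called (0.43).

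With each library centred on its median, KCNQ1OT1 reversed under stress for hiAGPC over conventional (-0.59), 2nd over 1st step (-0.66) and the corresponding interactions (-0.57 and -0.57). FTX reversed for the 2nd step over hiAGPC under stress (-0.16) and for the interaction of hiAGPC and conventional (-1.04). FTX was no longer called for the 2nd step over hiAGPC in control cells (0.87) or, under stress, for hiAGPC over conventional (0.30) and 2nd over 1st step (0.066). It was now called for stress in the conventional preparation (-1.41), 1st step (-1.21) and hiAGPC (-2.45) and for the interactions of 2nd with 1st step (-2.27) and with hiAGPC (-1.04). The median of all DoGs was positive in each of these comparisons, so centring lowered the FTX values by design.

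On the adjusted p alone, KCNQ1OT1 also passed at 0.86, 0.78 and 0.31 under stress and at 0.79 and 0.71 for its interactions, and FTX at -0.86, -0.71 and -0.53 for stress and at -0.52 and -0.71 for its interactions.

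Leaving out each library in turn, FTX ranged from 0.85 to 1.20 for the 2nd step over hiAGPC in control cells, from -1.03 to -0.68 for stress in the conventional preparation (called without stress conventional replicate 1) and from -0.16 to 0.18 for the 1st step over conventional under stress, where it reversed to -0.16 without stress conventional replicate 2 and to -0.05 without stress 1st-step replicate 1. In these fits the lone library of a group is assumed to vary like the others. With a minimum length of 20 kb, KCNQ1OT1 was listed in 5 libraries and FTX in 2. Each mean length without a library is the other library's value given above.

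Deviations of libraries with the same replicate number were barely correlated between preparations (-0.07 to 0.06 over 12 pairs within a condition). Such correlations cannot show that the libraries were unpaired, since the paper describes extraction of shared samples in parallel. A replicate block changed no call by both criteria: for the 2nd over the 1st step under stress, KCNQ1OT1 kept 1.32 (limma, adjusted p = 1.07e-08). A low-FPKM filter, no trend and the 4 libraries alone changed no call.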

Other observations

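Among regulatory lncRNAs with a DoG value, KCNQ1OT1 had a large aqueous level for its level in the interphase-recovering preparations. Under stress, the conventional mean was between 13.0% (ZFAS1) and 23.9% (KCNQ1-AS1) of the hiAGPC mean for NORAD, GAS5, HOTAIR, HOTTIP, KCNQ1-AS1, DLEU2, ZFAS1 and SNHG16, against 51.1% for KCNQ1OT1 and 7.94% for FTX. CYTOR stood higher than KCNQ1OT1, at 77.8%, but from 0.03 to 0.05 FPKM in these 4 libraries, which is 3 to 5 rounding steps. Conventional values under stress were also low for HOTAIR (0.05 and 0.04), HOTTIP (0.07 and 0.07) and FTX (0.04 and 0.01), so their ratios are uncertain too. Under stress, HOTAIR, HOTTIP and KCNQ1-AS1 were listed only in 2nd-step libraries, and DLEU2 and ZFAS1 only in hiAGPC and 2nd-step libraries. Such DoGs entered through the preparations that recover RNA from the interphase, which favours low ratios, while KCNQ1OT1 was listed in every stress library. Each FPKM was taken over 1 region per gene, 80 kb for KCNQ1OT1, although its conventional libraries listed 15 kb. These ratios are descriptions without a test, since this set was chosen after the values were seen and one lncRNA of the list was left out.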
